A study of Mus musculus with 2 samples.

Results

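The mitochondrial carriers are the Slc25a genes, most of which encode transporters of the inner mitochondrial membrane. They were taken here as every gene whose symbol starts with Slc25a, except Slc25a37 (mitoferrin 1) and Slc25a38 (the glycine carrier of heme synthesis). The rule gave 45 members among the 27998 genes of the count tables. The study comprised 2 single-cell RNA libraries from mouse bone marrow, each prepared with 10x Genomics droplets from a pool of 3 naive mice of C57BL/6 background, with 10000 sorted cells loaded. The marrow library held cells sorted as CD45+, CD3- and Ly6G- from mice without a reporter. The Car1-GFP library held CD45+ cells that expressed GFP in Car1-GFP reporter mice; the reporter construct is not described in the sources used here. Both sorts required CD45, a surface protein that maturing erythroid cells lose, and Car1 (carbonic anhydrase 1) is a gene of erythroid progenitors. With 1 library a condition there was no replicate, so no test was made between conditions; all intervals are 95% intervals of counting error and leave out any difference between animals or sorts.

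Mitochondrial carriers share a fold, and most exchange metabolites across the inner membrane. Adenine nucleotide carriers export ATP in exchange for ADP, the phosphate carrier feeds ATP synthesis, and other members move citrate, malate, amino acids, acylcarnitines, nucleotides and cofactors. In red cell precursors the mitochondrion also makes heme, which begins with glycine and succinyl-CoA, and mature red cells lose their mitochondria. The carriers are encoded in the nucleus, and those of the inner membrane are brought into it by the TOM complex, the small TIM chaperones and the TIM22 complex.

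After filtering, the marrow library had 6268 cells with a median of 1031 UMIs and the Car1-GFP library 2400 cells with a median of 15512.5. The matrices shared 14 cell barcodes. Levels are given as CPM, the UMIs of a gene per 1000000 UMIs of the cells summed. Car1 stood at 594 CPM in Car1-GFP cells and 102 CPM in marrow cells, and all 17 markers of the erythroid list were detected in both, at a summed 17843 against 2650 CPM. The marrow sort still held 1996 cells with neutrophil markers, in which S100a8 reached 199234 CPM, and S100a8 was found at 8750 to 30804 CPM in the other 8 classes as well. In the marrow, 264 cells in 2 clusters were named erythroid from their markers: 131 globin-rich cells (globin 5.54% of UMIs) and 133 Car1-rich cells (globin 0.0485%). The latter came from a cluster that was split after its values had been seen.

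Of the 45 carriers, 31 had at least 20 UMIs in each library, and Slc25a26, Slc25a29, Slc25a35, Slc25a43 and Slc25a47 reached that number in the Car1-GFP library alone, which had 42795219 UMIs against 8303633. The other 9 were not measured in either library: Slc25a2, Slc25a18, Slc25a27, Slc25a30, Slc25a31, Slc25a34, Slc25a41, Slc25a48 and Slc25a54. Slc25a18, Slc25a31, Slc25a34, Slc25a48 and Slc25a54 had no UMI at all, which allows up to 0.361 CPM in marrow and 0.0701 CPM in Car1-GFP cells. Slc25a31 encodes the germ cell form of the adenine nucleotide carrier, and Slc25a18 one of the glutamate carriers.

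The family as a whole took 0.292% of the UMIs in the Car1-GFP library and 0.113% in the marrow library. Slc25a5 and Slc25a4 (adenine nucleotide carriers) and Slc25a3 (the phosphate carrier) together accounted for 78.7% of the family's UMIs in Car1-GFP cells and 59% in marrow. The counts are 3′ tags, 1 per molecule captured, so they do not grow with transcript length. Slc25a5 alone made up 44.9% of the family in Car1-GFP cells and 33.1% in marrow.

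**Figure D1:**
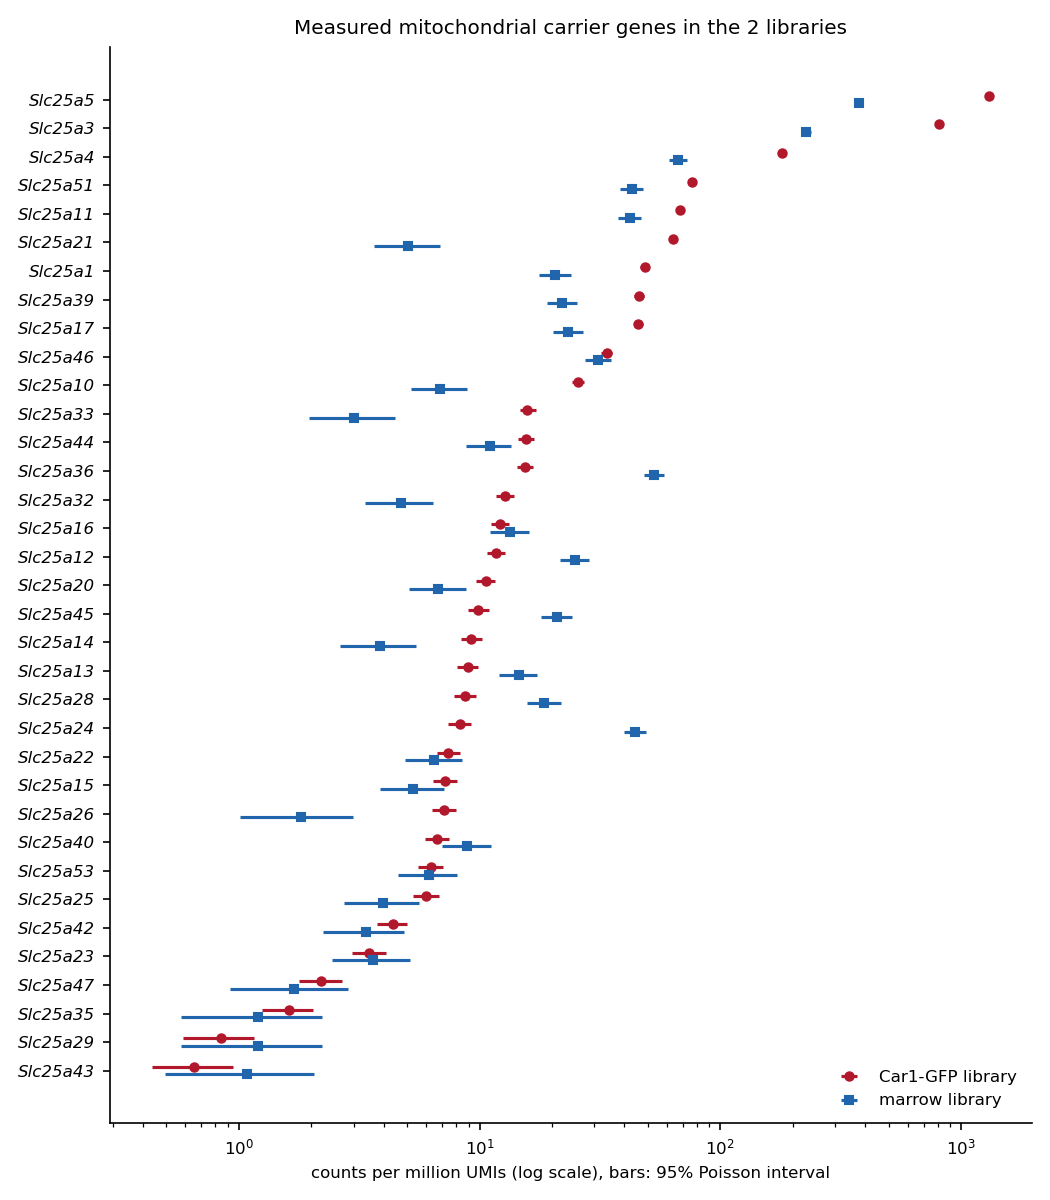
CPM (log axis) of 35 of the 36 carriers measured between the libraries, in the Car1-GFP library (circles) and the marrow library (squares), with 95% Poisson intervals. Slc25a21 shows the widest gap, 63.9 against 5.06 CPM, and Slc25a24 and Slc25a36 lie the other way.

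Between the libraries, 12 of the 36 measured carriers were at least 2-fold higher in Car1-GFP cells (33.3%), where 22.2% of all 12076 measured genes were. Another 5 were at least 2-fold lower (13.9%), against 32.7% of all genes. The median log2 ratio of the carriers was 0.47, and that of all genes −0.23. The marrow library is a mixture of many cell types, so this comparison sets an enriched population beside a mixed one. With TMM or DESeq2 scaling, which moves every log2 ratio up by 0.39 or 0.38, 2 carriers were lower in place of 5 and 16 were higher in place of 12. These scalings move all genes alike, and the shares of all genes under them are not given here.

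Among the energy carriers, Slc25a5 stood at 1309 CPM in Car1-GFP cells and 376 in marrow (3.48-fold). Slc25a3 stood at 807 and 227 CPM (3.55-fold). Slc25a4 stood at 180 and 66.6 CPM (2.71-fold). The ATP-Mg/phosphate carrier Slc25a24, which adjusts the adenine nucleotide pool of the matrix, went the other way, at 8.27 against 44.3 CPM (log2 −2.42, interval −2.64 to −2.21). Its relatives Slc25a23 (3.48 and 3.61 CPM) and Slc25a25 (5.98 and 3.97 CPM) differed by less than 2-fold.

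Of the carriers of di- and tricarboxylates, 3 of 4 were at least 2-fold higher in Car1-GFP cells. The citrate carrier Slc25a1 stood at 48.6 against 20.6 CPM, and the dicarboxylate carrier Slc25a10 at 25.7 against 6.86 CPM. The oxoglutarate carrier Slc25a11 was at 68.2 against 42 CPM, within 2-fold. The largest ratio of the family belonged to Slc25a21, the carrier of 2-oxoadipate and 2-oxoglutarate, with 2735 UMIs in Car1-GFP cells and 42 in marrow (63.9 against 5.06 CPM, 12.6-fold, log2 3.66, interval 3.22 to 4.14). Slc25a21 lies on chromosome 12 from 56712634 to 57197472 on the minus strand (mm10, GENCODE M21). Its exons overlap those of Pax9 on the opposite strand, but Pax9 had 2 UMIs in each library. RefSeq gives Slc25a21 a pair of start sites, and the 250 bases before each are shown because this gene carries the clearest erythroid pattern below; capitals mark any match to CACGTG (an E-box), AGATAA (the GATA motif) or TGCGCA (the core of the NRF1 motif), sought on both strands. The first window holds TGCGCA 136 bases before the start and the second none of the motifs.
Slc25a21 promoter, chr12:57197473-57197722, minus strand: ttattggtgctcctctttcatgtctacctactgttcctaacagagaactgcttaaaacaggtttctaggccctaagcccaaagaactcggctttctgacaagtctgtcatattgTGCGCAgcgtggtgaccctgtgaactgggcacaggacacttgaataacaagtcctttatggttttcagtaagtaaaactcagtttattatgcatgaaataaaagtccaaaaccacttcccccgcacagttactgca
Slc25a21 promoter, chr12:57160644-57160893, minus strand: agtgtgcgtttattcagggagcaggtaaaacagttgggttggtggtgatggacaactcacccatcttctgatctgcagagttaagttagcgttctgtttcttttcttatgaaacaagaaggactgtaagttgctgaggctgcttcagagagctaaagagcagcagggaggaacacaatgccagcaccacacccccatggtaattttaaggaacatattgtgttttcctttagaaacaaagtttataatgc

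The carriers of nucleotides and cofactors split. Slc25a33 (pyrimidine nucleotides) was at 15.8 against 3.01 CPM, Slc25a32 (folate and flavin) at 12.7 against 4.7, and Slc25a26 (S-adenosylmethionine) at 7.1 against 1.81, all at least 2-fold higher in Car1-GFP cells. Slc25a36, the other pyrimidine nucleotide carrier, was 3.43-fold lower, at 15.4 against 53 CPM. Slc25a51, the NAD carrier, was at 76.5 against 42.9 CPM and the peroxisomal Slc25a17 at 45.6 against 23.2 CPM, both under 2-fold. Slc25a16 (12.2 against 13.4 CPM) and the coenzyme A carrier Slc25a42 (4.35 against 3.37 CPM) were close to their marrow values. The closely related pair Slc25a33 and Slc25a36 thus lay on opposite sides.

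Of the carriers for iron and glutathione, the glutathione carrier Slc25a39 was at 46.1 against 22 CPM (2.09-fold) and its relative Slc25a40 at 6.66 against 8.91 CPM. Slc25a28, mitoferrin 2, was 2.13-fold lower in Car1-GFP cells, at 8.72 against 18.5 CPM. The aspartate/glutamate carrier Slc25a12 was 2.12-fold lower at 11.7 against 24.8 CPM; its relative Slc25a13 (8.95 against 14.6 CPM) and the glutamate carrier Slc25a22 (7.43 against 6.5 CPM) were within 2-fold. None of the 4 measured carriers of carnitine and other amino acids (Slc25a15, Slc25a20, Slc25a29 and Slc25a44) passed 2-fold. The uncoupling-like Slc25a14 was 2.4-fold higher and Slc25a45 2.12-fold lower.

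Beside the family, the excluded Slc25a37 (mitoferrin 1) was at 39 against 40.7 CPM and Slc25a38 (the glycine carrier of heme synthesis) at 66.9 against 12.5 CPM. Of the 11 measured genes that bring carriers to the inner membrane, 7 were at least 2-fold higher in Car1-GFP cells and none lower (median log2 ratio 1.04). The largest ratios were those of the intermembrane space chaperones Timm9 (108 against 20.5 CPM) and Timm10 (153 against 34.8 CPM) and of the outer membrane pore and receptor, Tomm40 (202 against 38.8 CPM) and Tomm20 (864 against 169 CPM). Of 10 genes chosen for mitochondrial content, 7 were higher and none lower, with a median of 1.47, led by Hspd1 (549 against 120 CPM) and Atp5b (1367 against 301 CPM). The median of the carriers, 0.47, was thus below that of both lists. Of 16 measured genes of other mitochondrial transport, 6 were higher, including Vdac1 (257 against 83.8 CPM), and 3 lower, including the calcium uniporter Mcu (5.33 against 31.3 CPM).

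Within the marrow library the erythroid cells could be set beside all other kept cells of the same sort and preparation. Of the 31 measured carriers, 8 were at least 2-fold higher in the 264 erythroid cells (25.8%), where 17.4% of all 10429 measured genes were. Only Slc25a45 and Slc25a53 were at least 2-fold lower (6.45%), against 22.1% of all genes, and the latter had 2 erythroid UMIs. The median log2 ratio was 0.64 for the carriers and 0.10 for all genes. The erythroid cells had a median of 2504.5 UMIs.

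Slc25a21 was nearly limited to erythroid cells: 35 of its 42 marrow UMIs fell in 32 of the 264 erythroid cells, and 7 in the 6004 other cells. Its level was 43.6 CPM (30.4 to 60.6) against 0.933 CPM (0.375 to 1.92), a log2 ratio of 5.55 (4.35 to 6.96). Both erythroid clusters carried it, the Car1-rich one at 38.8 and the globin-rich one at 52.2 CPM. In the other classes it had at most 2 UMIs each, with 1.17 CPM in granulocyte-monocyte progenitors, 1.87 in stem and multipotent progenitors, 0.531 in monocytes and 0.432 in neutrophils. Without the split of the marrow cluster, which leaves Car1-rich cells among the others, the log2 ratio was 3.95 (2.94 to 4.92), and at a mitochondrial share under 5% it was 3.79. In Car1-GFP cells 1326 of 2400 had at least 1 UMI; the level was 68.6 CPM in clusters named erythroid and 36.3 CPM in the others.

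Slc25a42, a carrier of coenzyme A, was the next in size, with 15 of its 28 marrow UMIs in 15 erythroid cells (18.7 CPM, 10.5 to 30.8) and 13 in the other cells (1.73 CPM). The Car1-GFP library, however, gave it 4.35 CPM (3.74 to 5.02). That value lies below both marrow erythroid clusters, at 17.5 CPM (Car1-rich) and 20.9 CPM (globin-rich). In the 1651 Car1-GFP cells of clusters named erythroid it was at 4.48 CPM (3.82 to 5.22), and in the other 749 at 3.58 CPM. The log2 ratio of the whole Car1-GFP library over the marrow erythroid cells was −2.10 (−2.86 to −1.24), and −1.35 when Leiden resolution 0.5 widened the marrow class to 816 cells.

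Slc25a51 was at 103 CPM (82.4 to 128) in erythroid cells against 36.4 in the others, a log2 ratio of 1.51 (1.13 to 1.87). The branched-chain amino acid carrier Slc25a44 was at 26.2 against 9.33 CPM, and Slc25a33 at 8.72 against 2.4 CPM from 7 erythroid UMIs. Slc25a32 stood at 9.97 against 4.13 CPM, with an interval that reached 0 (log2 1.27, −0.06 to 2.42). For Slc25a33, 6 of these 7 UMIs were in Car1-rich cells, and without the split its log2 ratio was 0.22 in place of 1.86. Slc25a1 (52.3 against 17.2 CPM) and the ornithine carrier Slc25a15 (12.5 against 4.53 CPM) were likewise higher through the Car1-rich cluster, where they stood at 71.8 and 17.5 CPM. In the globin-rich cluster they stood at 17.4 and 3.48 CPM, and with that cluster as the erythroid class their log2 ratios were −0.25 and −0.63. Of the energy carriers, Slc25a5 (430 against 370 CPM) and Slc25a4 (54.8 against 67.9 CPM) were close to their level in the other cells summed. That sum mixes unlike classes. Slc25a4 ran from 10.4 CPM in neutrophils to 146 in plasmacytoid dendritic cells, and Slc25a5 from 131 in neutrophils to 518 in monocytes. Slc25a3 was higher, at 387 against 210 CPM, but within 2-fold (log2 0.88, interval 0.70 to 1.06).

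Across the 9 marrow classes of at least 50 cells, 9 of the 31 carriers had their highest level in erythroid cells (29%), against 19% of 10364 genes. They included Slc25a3, Slc25a20, Slc25a21, Slc25a32, Slc25a39, Slc25a42, Slc25a44 and Slc25a51. For Slc25a21 the intervals of 6 of the 8 other classes lay wholly below its erythroid interval, for Slc25a3 also 6, for Slc25a51 5 and for Slc25a42 4. Of those named, only Slc25a3 had an interval wholly above that of its next class (346 to 433 against 284 to 338 CPM). The others overlapped theirs. For Slc25a21 and Slc25a42 the next class, NK and innate lymphoid and basophil/mast cells, rested on 1 UMI each. Slc25a20 was at 9.97 CPM in erythroid cells and 9.34 in stem and multipotent progenitors, and Slc25a32 was as close to its next class.

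**Figure D2:**
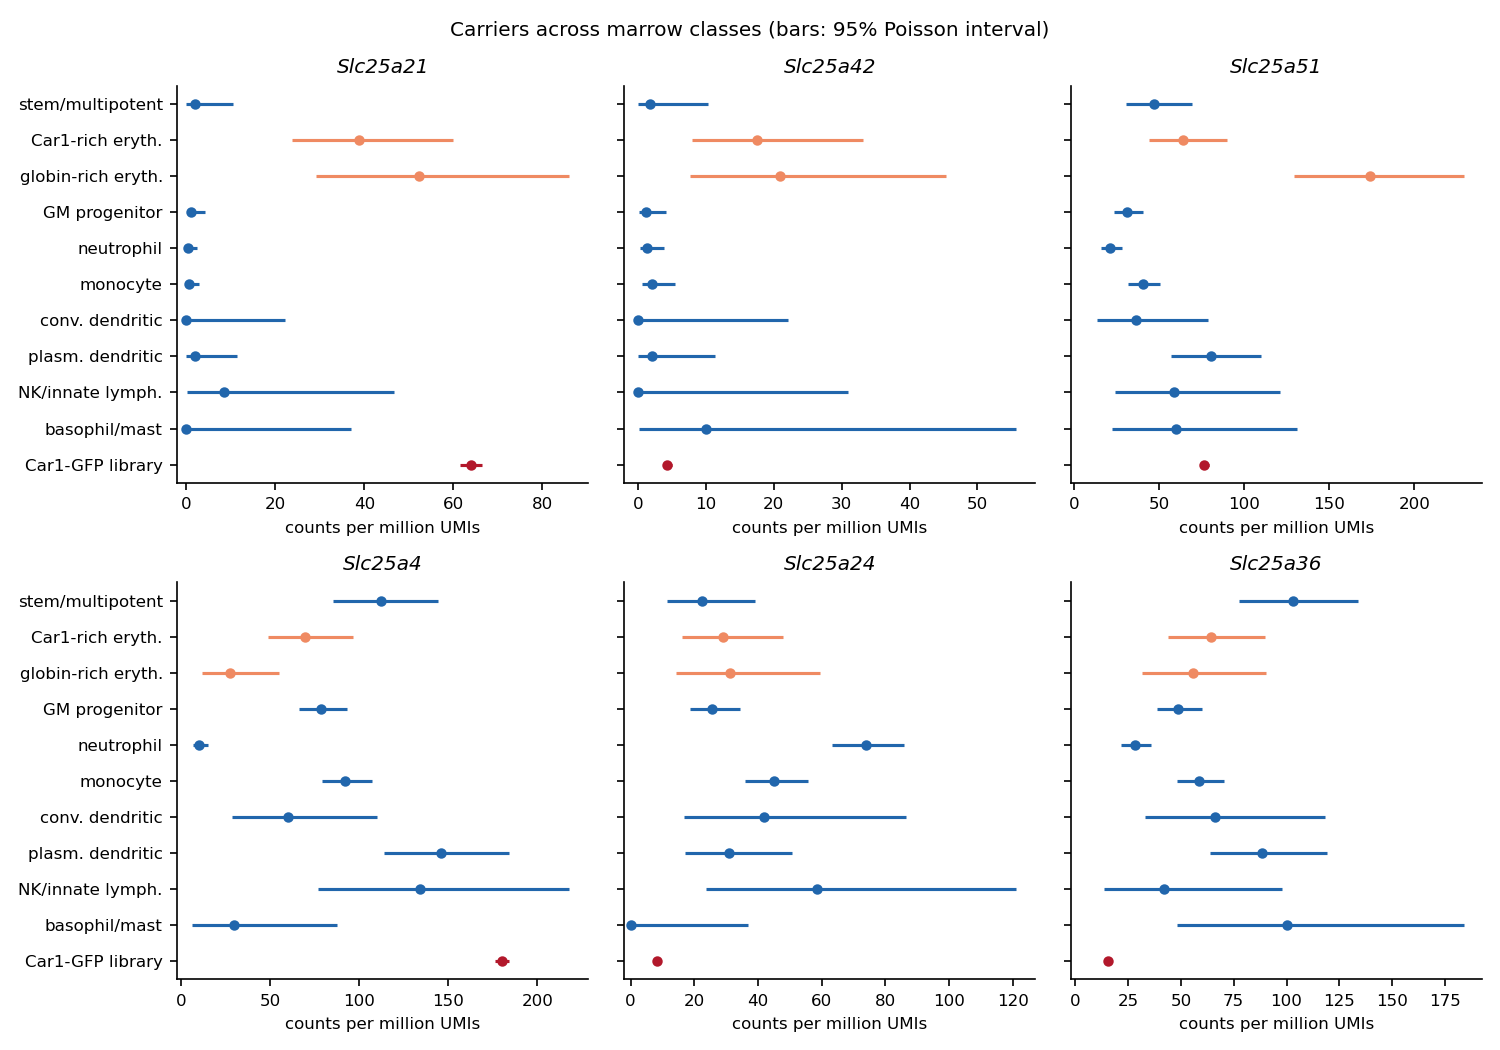
CPM of 6 carriers in the marrow classes (blue; the 2 erythroid clusters in orange) and in the whole Car1-GFP library (red), with 95% Poisson intervals. Slc25a21 is high in both marrow erythroid clusters and in the Car1-GFP library, Slc25a42 in the former alone, and Slc25a24 peaks in neutrophils.

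Other carriers had their highest level in other classes, often without a clear gap to the next. Slc25a24 was highest in neutrophils, at 73.9 CPM (63.2 to 85.8) from 171 UMIs, against 58.7 in NK and innate lymphoid cells (23.6 to 121, from 7 UMIs), 45.1 in monocytes and 25.7 in granulocyte-monocyte progenitors. It was the only one of the 31 carriers that peaked there (3.23%, against 4.29% of 10364 genes). The share of the family was also lowest in neutrophils, at 0.0547% of UMIs against 0.103% to 0.151% in the other 8 classes; the S100a8 level of that class, given above, enters this denominator, and its part was not tested. Slc25a4 was highest in plasmacytoid dendritic cells, at 146 CPM (114 to 184), with 134 in NK and innate lymphoid cells, 112 in stem and multipotent progenitors and 10.4 in neutrophils. Slc25a36 was at 103 CPM (77.4 to 134) in stem and multipotent progenitors, 100 in basophil/mast cells and 28.1 in neutrophils. For Slc25a4, Slc25a36 and Slc25a5 the intervals of the highest 2 classes overlap. The adenine nucleotide carrier Slc25a5 was at 518 CPM in monocytes, 499 in granulocyte-monocyte progenitors and 131 in neutrophils.

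The Car1-GFP library was also set beside the marrow erythroid cells alone, a comparison added after the data had been seen that uses the same Car1-GFP counts. Of the 12 carriers that were higher than in marrow, all but Slc25a4 had a smaller ratio here. Of the 36 measured carriers, 6 were at least 2-fold higher in Car1-GFP cells (16.7%), where 12.4% of 11086 genes were, and 5 at least 2-fold lower (13.9%), against 27.5% of all genes. The median log2 ratio was −0.01, with −0.30 over all genes. TMM scaling gave 11 higher and 3 lower, and DESeq2 scaling 10 higher and 3 lower, for which the shares of all genes are not given here. Slc25a21 was at 63.9 against 43.6 CPM, Slc25a1 at 48.6 against 52.3, Slc25a39 at 46.1 against 39.9 and Slc25a51 at 76.5 against 103, all within 2-fold.

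The carriers at least 2-fold higher in Car1-GFP cells included those of ATP synthesis and 2 of organic acids, of which Slc25a11 had been within 2-fold of the whole marrow. Slc25a5 was at 1309 against 430 CPM, Slc25a4 at 180 against 54.8 and Slc25a3 at 807 against 387. Slc25a11 was at 68.2 against 27.4 CPM and Slc25a10 at 25.7 against 7.47, while Slc25a53 rested on 2 marrow UMIs and its interval included 0. With the marrow cluster not split, Slc25a10 was within 2-fold (log2 0.56), and at Leiden resolution 0.5 Slc25a11 was (log2 0.85). Those lower were Slc25a42, Slc25a36 (15.4 against 61 CPM), Slc25a24 (8.27 against 29.9 CPM), Slc25a40 (6.66 against 14.9 CPM) and Slc25a28 (8.72 against 17.4 CPM). With TMM scaling Slc25a40 (log2 −0.71) and Slc25a28 (log2 −0.54) were within 2-fold with intervals that included 0, and Slc25a28 turned to 0.33 with the marrow cluster not split and to 0.26 at a mitochondrial share under 5%. The neutrophil markers, of which all 10 were detected on both sides, summed to 18684 CPM in the marrow erythroid cells and 174 CPM in Car1-GFP cells; their part in these values was not tested.

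Globin share was then used to order the Car1-GFP cells. Globin UMIs made up 0.211% to 0.748% of a cell's UMIs in the lower 4 of 5 bins of 480 cells each, and 0.75% to 54% in the top bin, so most cells differ little on this scale. From the bottom to the top bin Kit went from 52.1 to 13.9 CPM, Gata2 from 59.3 to 22.7, Tfrc from 61.6 to 137 and Alas2 from 10.2 to 95 CPM. The median depth was 16008 UMIs in the bottom bin, 10189 in the fourth and 16943 in the top bin.

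None of the 34 measured carriers was at least 2-fold higher in the top bin, where 4.64% of 9917 genes were. Another 7 were at least 2-fold lower (20.6%), against 9.66% of all genes. The median log2 ratio was −0.20 for the carriers and −0.16 for all genes. The count of lower carriers was 4 with TMM and 3 with DESeq2 scaling, 2 when each cell was thinned to 4500 UMIs, and 8 among cells of 10000 to 30000 UMIs. The share of all genes in these settings is not given here, so an excess of lower carriers is shown for the main setting alone. No direction of the 7 turned in any of these settings. Summed markers of other lineages were lower in the top than in the bottom bin too: 314 against 461 CPM for granulocyte-monocyte progenitors, 124 against 359 for neutrophils, 30.8 against 70.2 for basophil/mast cells and 104 against 172 for stem and multipotent progenitors. The neutrophil sums over the bins were 359, 73.4, 214, 84.7 and 124 CPM, so the top bin lay above the second and the fourth. The part of these markers in the counts of carriers was not tested.

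Slc25a4 stood at 208, 206, 203, 182 and 96.4 CPM from the bottom to the top bin (log2 −1.11, interval −1.23 to −0.99). Slc25a5, the other main adenine nucleotide carrier, stood at 1440, 1408, 1339, 1186 and 1122 CPM, and Slc25a3 at 845, 838, 820, 763 and 750 CPM. For Slc25a4 the step lay between the fourth and the top bin, and for the other 2 it was spread over the bins. The lower 4 bins had median globin shares of 0.469% to 0.639% only, and the fourth was the shallowest. In Car1-GFP clusters not named erythroid Slc25a5 was at 1060 CPM, against 1351 in those named so. Slc25a3 was at 719 against 821 CPM and Slc25a4 at 186 against 179 CPM. The part of depth and cell mix in the values by bin was not tested. The ATP-Mg/phosphate carrier Slc25a23 stood at 4.47 CPM in the bottom and 1.78 in the top bin.

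The pyrimidine nucleotide carrier Slc25a33 stood at 20, 18.2, 16.1, 16.8 and 7.46 CPM (log2 −1.43, −1.86 to −1.01). Slc25a15, which exchanges ornithine and citrulline in the urea cycle, stood at 9.48, 8.07, 7.44, 7.09 and 3.55 CPM. The carnitine/acylcarnitine carrier Slc25a20, needed for fatty acid oxidation, stood at 14.4 CPM in the bottom bin and 6.87 in the top bin. Slc25a13 (aspartate/glutamate) stood at 11.4 and 5.57 CPM, and Slc25a22 (glutamate) at 9.04 and 4.03 CPM. For all 5 the top bin was the lowest of the 5 bins.

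The promoters of these 7 were searched for the same motifs. A RefSeq promoter (GRCm38.p6) was matched for 35 of the 45 carriers; those without one included Slc25a26, Slc25a32, Slc25a44 and Slc25a51. CACGTG, the E-box bound by Myc and related factors, was in the 250 bases before a start of 7 of the 35 carriers (20%), and of 6.86% of 27025 genes. The 7 were Slc25a1, Slc25a13, Slc25a14, Slc25a15, Slc25a31, Slc25a33 and Slc25a36. AGATAA was found in Slc25a5 and Slc25a53 (5.71%, against 11.4% of genes), and TGCGCA in Slc25a3, Slc25a21, Slc25a31 and Slc25a36 (11.4%, against 7.36%). Slc25a13, Slc25a15 and Slc25a33 hold CACGTG and were lower in the top globin bin, so their windows are shown, with the motif in capitals, beside Slc25a4, which was also lower and has none of the motifs. The other start of Slc25a15 has no match. Of the 7 lower carriers 4 have no CACGTG, and Slc25a1, Slc25a14 and Slc25a36 have it and were not 2-fold lower. A match is a description of the sequence and not a measured binding site.
Slc25a13 promoter, chr6:6217174-6217423, minus strand: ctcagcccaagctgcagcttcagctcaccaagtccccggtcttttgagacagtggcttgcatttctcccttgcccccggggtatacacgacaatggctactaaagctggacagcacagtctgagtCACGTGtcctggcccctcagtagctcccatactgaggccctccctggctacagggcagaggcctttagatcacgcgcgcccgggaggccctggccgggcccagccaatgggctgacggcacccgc
Slc25a15 promoter, chr8:22398278-22398527, minus strand: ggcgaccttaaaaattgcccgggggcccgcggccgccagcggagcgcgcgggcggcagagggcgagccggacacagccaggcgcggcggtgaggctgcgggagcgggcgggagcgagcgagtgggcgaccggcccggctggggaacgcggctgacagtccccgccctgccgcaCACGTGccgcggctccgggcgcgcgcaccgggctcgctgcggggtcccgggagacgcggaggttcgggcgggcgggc
Slc25a33 promoter, chr4:149774268-149774517, minus strand: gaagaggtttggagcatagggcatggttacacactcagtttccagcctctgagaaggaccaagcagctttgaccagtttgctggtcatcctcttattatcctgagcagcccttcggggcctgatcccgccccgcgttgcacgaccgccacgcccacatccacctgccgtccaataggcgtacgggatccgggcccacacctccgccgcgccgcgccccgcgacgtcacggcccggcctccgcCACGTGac
Slc25a4 promoter, chr8:46211063-46211312, minus strand: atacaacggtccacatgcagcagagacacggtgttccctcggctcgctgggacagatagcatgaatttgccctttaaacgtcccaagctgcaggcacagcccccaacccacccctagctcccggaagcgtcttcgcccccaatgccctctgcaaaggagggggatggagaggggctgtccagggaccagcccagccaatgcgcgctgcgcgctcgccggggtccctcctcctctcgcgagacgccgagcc

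Slc25a51 stood at 65.2, 61.8, 70, 75.1 and 114 CPM over the 5 bins (1.74-fold, log2 0.80, interval 0.65 to 0.95). A transcript of Itgad holds a stretch that resembles the 3′ end of Slc25a51, but Itgad had 0 UMIs in Car1-GFP cells. Slc25a21 stood at 62.6, 66, 61.8, 51.6 and 75.1 CPM, with its lowest value in the fourth bin, which was also the shallowest. Slc25a39 stayed between 44.6 and 47.6 CPM, Slc25a40 was at 4.69 in the bottom and 8.53 CPM in the top bin, and Slc25a24 at 6.76 and 11.3 CPM. With TMM or DESeq2 scaling Slc25a40, at a log2 ratio of 0.86 before scaling, was the 1 carrier past 2-fold upward. The excluded Slc25a37 stood at 22.1 and 108 CPM, and Slc25a38 at 54.6 and 110 CPM.

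Because the 4 lower bins are so alike, fixed bands of globin share were added after the data had been seen: under 1% (2022 cells), 1% to 5% (279 cells), 5% to 20% (69 cells) and over 20% (30 cells). Globin made up a median of 49.8% of UMIs in the last band, so the levels here leave globin out of the denominator. On that scale Slc25a5 stood at 1352, 1220, 962 and 785 CPM over the bands. Slc25a3 stood at 823, 803, 665 and 793 CPM, the last with an interval of 648 to 961. Slc25a4 stood at 199, 93.2, 75.1 and 152 CPM, the last from 20 UMIs (93.1 to 235), and Slc25a33 at 17.8, 6.15, 6.01 and 7.62 CPM, the last from 1 UMI. Slc25a15, lower in the top bin, stood at 8.05, 1.86, 8.01 and 15.2 CPM, from 288, 10, 8 and 2 UMIs. Its low value thus lay in the band of 1% to 5%. Slc25a5 was thus lower in each successive band, with overlapping intervals in the last 2, and Slc25a3 was not. The family took 0.299% of UMIs in the lowest band and 0.138% in the highest; with globin left out of the denominator these shares were 0.3% and 0.236%. Slc25a51 stood at 69.6, 119, 121 and 152 CPM, and Slc25a21 at 61.5, 81.5, 86.2 and 83.9 CPM, so that both were lowest in the first band. With globin in the denominator the values of the last band were 457 CPM for Slc25a5, 461 for Slc25a3, 88.7 for Slc25a4 and for Slc25a51, and 48.8 for Slc25a21. The median depth of the last band was 5998.5 UMIs, against 14971 in the first.

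**Figure D3:**
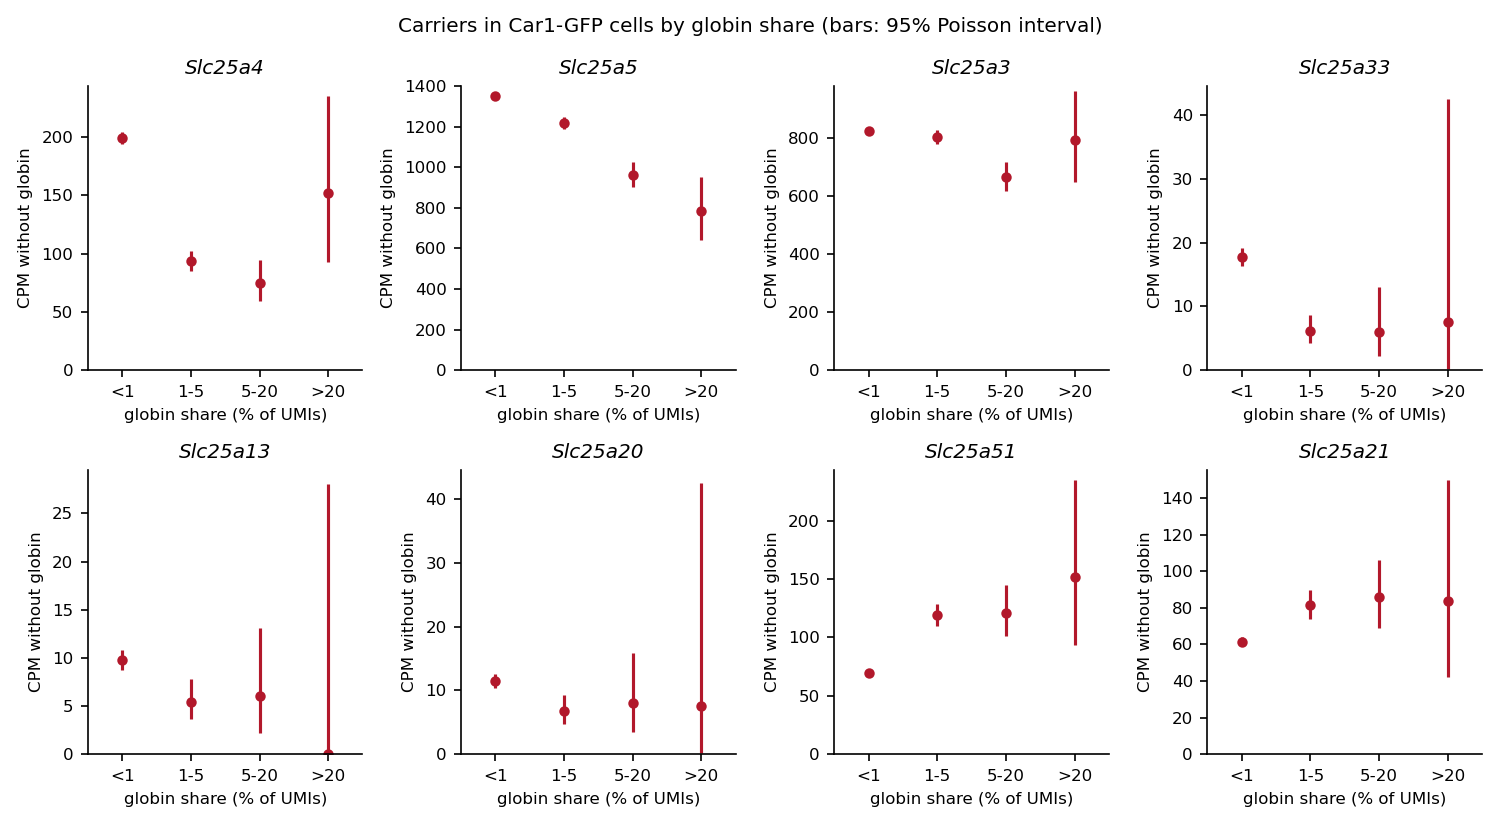
CPM, with globin left out of the denominator, of 8 carriers in Car1-GFP cells by bands of globin share (under 1%, 1% to 5%, 5% to 20% and over 20%; 2022, 279, 69 and 30 cells), with 95% Poisson intervals. Slc25a5 is lower in each successive band, Slc25a4 and Slc25a33 are lower at 1% to 5% and at 5% to 20% than under 1%, and Slc25a51 is lowest under 1%.

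The marrow erythroid cells gave a second view, from other mice. They were split at the middle into 2 sets of 132 cells, a lower and an upper one, with globin shares of 0% to 0.229% and of 0.232% to 93.6%, and median depths of 3597.5 and 1807 UMIs. Of the 13 carriers measured, 1 was at least 2-fold higher in the upper set (7.69%; 7.3% of 4712 genes) and 2 were at least 2-fold lower (15.4%; 10.7% of genes). The median log2 ratio was −0.21, against −0.10 over all genes. Slc25a51 was at 173 against 64.2 CPM (log2 1.43, 0.77 to 2.11). Slc25a4 was at 27.7 against 70 CPM (log2 −1.34, −2.65 to −0.21) and Slc25a1 at 20.8 against 70 CPM (log2 −1.75, −3.29 to −0.49). With the erythroid class limited to the 131 globin-rich cells and split in the same way, the log2 ratios were 0.03 for Slc25a51, −0.85 for Slc25a4 and −1.26 for Slc25a1, and no carrier was counted in either direction. For Slc25a51 the difference within the erythroid class thus lay between its 2 clusters, at 174 CPM in the globin-rich and 64.1 in the Car1-rich cells. Slc25a4 was at 27.8 and 69.9 CPM in these clusters. The globin-rich cells held 8 UMIs of Slc25a4 and 5 of Slc25a1, below the minimum for a measured gene. Neither could therefore be counted there, and whether they differ within that cluster was not tested.

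Between these 2 marrow sets the ratios of Slc25a4, Slc25a51 and Slc25a1 had the sign they had in Car1-GFP cells, where Slc25a1 was at 53 and 35 CPM in the bottom and top bins. The globin ranges are unlike, however. The lower marrow set ended at 0.229%, whereas the bottom Car1-GFP bin ran from 0.211% to 0.498%. For Slc25a51 the marrow ratio was 0.10 (−0.84 to 1.01) at a mitochondrial share under 5% and 0.55 (−0.02 to 1.16) at Leiden resolution 0.5. Slc25a33, Slc25a13, Slc25a15, Slc25a20, Slc25a22 and Slc25a23 had under 20 UMIs each in the marrow erythroid cells and could not be compared. Slc25a21 was at 55.5 against 37 CPM, with an interval that included 0.

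**Figure D4:**
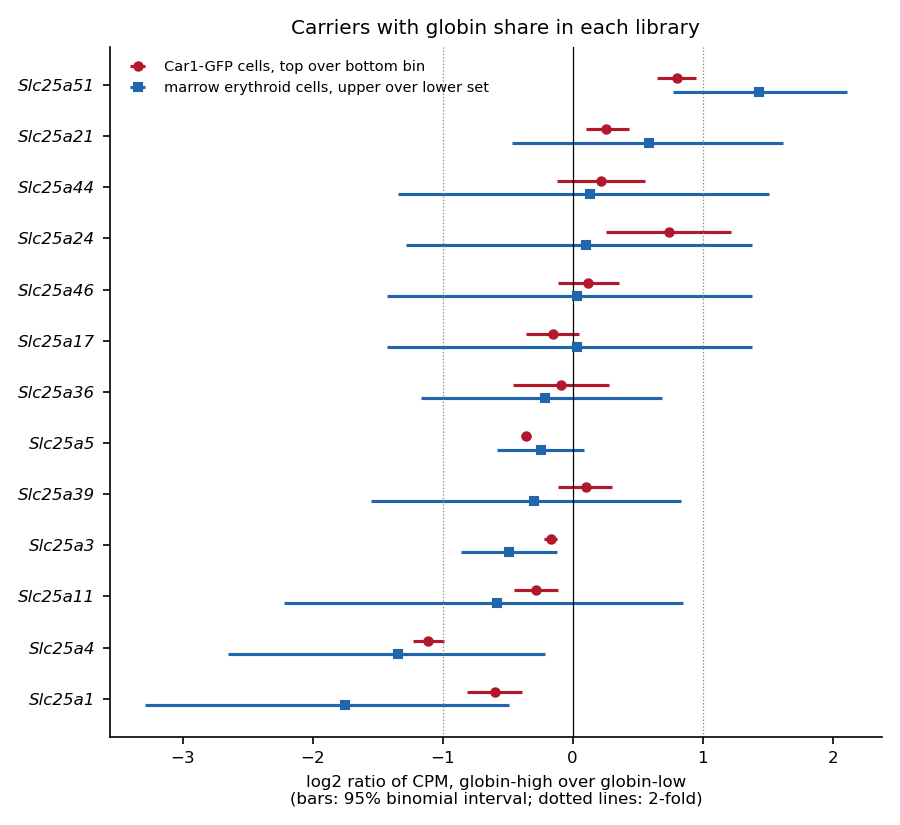
Log2 ratio of globin-high over globin-low cells for the 13 carriers measured in the marrow erythroid cells, in Car1-GFP cells (circles; top over bottom of 5 bins) and in marrow erythroid cells (squares; upper over lower set), with 95% binomial intervals. Slc25a51 lies to the right and Slc25a4 and Slc25a1 to the left in both libraries.

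Most genes of carrier import were lower at high globin as well, without passing 2-fold in Car1-GFP cells, where 0 of 11 did in either direction (median log2 ratio −0.41). Timm8b was slightly higher there (log2 0.12, interval 0.04 to 0.21). Tomm40 was at 131 CPM in the top and 222 in the bottom bin, and Timm9 at 70.5 and 118 CPM. In the marrow erythroid cells 4 of the 11 were at least 2-fold lower in the upper set (median −0.69), where 10.7% of all 4712 genes were. Among them were Timm9 at 20.8 against 83.6 CPM and Tomm40 at 45.1 against 128 CPM. Timm8b was higher in that set too (log2 0.58, interval 0.09 to 1.06). Of the 10 genes of mitochondrial content none passed 2-fold in Car1-GFP cells (median −0.19), where Atp5b stood at 1462 and 1385 CPM in the top and bottom bins, and 3 were lower in the upper marrow set, including Hspd1 at 198 against 484 CPM. The genes of other mitochondrial transport did not pass 2-fold in either library (medians −0.05 and 0.01).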

How the data were processed

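The deposited files hold UMI counts per gene and barcode, which are whole numbers; per the submitters' processing notes the authors used Cell Ranger 2.1 and Seurat 2 with mm10. Cells with at least 500 UMIs and under 10% mitochondrial UMIs were kept; Scrublet doublets (scanpy 1.11.5) were removed from the marrow library (171) and not from the Car1-GFP library, where 9 cells (0.375%) were marked. Each library was clustered alone (2000 variable genes, 30 components, 15 neighbours, Leiden resolution 1, seed 1) without the carriers and list genes (86 genes), and clusters were named from marker lists. An unnamed marrow cluster of at least 100 cells was clustered again. Counts were summed over cells and divided by all UMIs (CPM), with exact Poisson intervals, and ratios carry exact binomial intervals. A gene was measured with at least 20 UMIs over both sides; 2-fold counted as higher or lower; a count of 0 allows 3 counts. Scaling alternatives came from edgeR 4.0.16 and DESeq2 1.42.0. The functions were tested on simulated data. The members and lists were chosen with earlier results of these data known. Carriers past 2-fold with an interval that leaves out 0, and those with the most UMIs, are given in full, the others by range and counts; up to 4 genes of each other list are named. Slc25a5 and Slc25a40 have near-identical copies at their 3′ ends (Slc25a5-ps and Gm5066, at least 95% identity over at least 100 bases). Neither copy is among the genes counted, and whether reads were lost to them was not tested. The values of 1 carrier are counted in the totals but are not reported here.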

Additional observations from a re-analysis of the deposited data

How the results depend on the processing

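The 11 counts of carriers were recomputed under alternative settings, which gave 144 values in all. Of these values, 104 stayed within 1.5 times and 40 did not. The shares of all genes under the alternative settings are not given here. TMM and DESeq2 scaling moved log2 ratios by −0.26 and −0.24 between erythroid and other marrow cells, by 0.16 and 0.18 between globin bins and by 0.46 and 0.44 between Car1-GFP and marrow erythroid cells. With them, 2 carriers were lower in Car1-GFP cells than in marrow, 1 was higher at high globin, 4 and 3 were lower at high globin, and 11 and 10 were higher and 3 lower than in marrow erythroid cells. At 1.5-fold, 16 carriers were higher and 5 lower in erythroid marrow cells, 3 higher and 12 lower at high globin, 2 higher at high globin in marrow erythroid cells and 10 lower in Car1-GFP than in marrow erythroid cells. A minimum of 100 UMIs left 2 higher and 1 lower in erythroid marrow cells, 3 highest there, and 0 in either direction between the upper and lower marrow sets by globin share; no minimum gave 5 higher and 6 lower between these sets. Equal weights for cells gave 1 carrier higher at high globin, 10 bins 1, the named erythroid Car1-GFP clusters alone 2, and thinning to 4500 UMIs 1 higher and 2 lower; 4 bins gave 3 lower and beta globin alone 4. The erythroid class ranged from 124 cells (mitochondrial share under 5%) and 131 (unnamed cluster not split) to 816 (Leiden resolution 0.5): the first 2 gave 0 in either direction between these marrow sets, and the third 2 higher and 0 lower there and 0 lower than other marrow cells. Without doublet removal and at resolution 2, 1 carrier was lower in erythroid marrow cells; at 1000 UMIs per cell 1 was lower in the upper set. Of 413 values of single carriers, 6 turned: under 5% mitochondrial share and without the split, Slc25a1 was at log2 −0.22 and −0.25 and Slc25a15 at −0.52 and −0.63 in erythroid over other marrow cells, and Slc25a28 at 0.26 and 0.33 in Car1-GFP over marrow erythroid cells. In both settings the erythroid class holds mostly the globin-rich cells. No paired analysis was possible because there is 1 library per group. Of the 8303633 UMIs of the marrow library 802698 were erythroid, which limits the carriers of low level there.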

Other observations

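Slc25a53, a carrier without a settled substrate, had 17 of its 51 marrow UMIs in the 541 plasmacytoid dendritic cells (34.9 CPM, 20.3 to 55.9), against 9.34 CPM in stem and multipotent progenitors and 2.16 in neutrophils, and 0 UMIs in the Car1-rich erythroid cells. Slc25a1 had 11 UMIs in the 1996 neutrophils (4.75 CPM) and 38 in the 841 granulocyte-monocyte progenitors (22.2 CPM). Slc25a3 was at 77.3 CPM in neutrophils and 310 CPM in the same progenitors.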
